A study of Mus musculus with 8 samples.

Results

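The lincRNA probes of the array are described here, a class of 4460 probes of the 56605 on each array that were not controls. They were taken by the probe name that the array design gives this class, without use of any measured value, and they were designed against 4072 targets of the 47837 on the array. Long intergenic noncoding RNAs (lincRNAs) are transcripts from loci between protein-coding genes that are not translated. Many are spliced and polyadenylated like messenger RNA, many are restricted to a tissue or a cell type, and brain is a tissue in which a large number has been found. Some act in the nucleus on chromatin or on nuclear bodies, whereas for most no function is known.

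The RNA was from dentate gyrus, a hippocampal field where new granule neurons arise in adults, of male C57BL/6 mice aged 8 to 9 weeks. Derlin-1 control and Derlin-2 control mice carried the floxed Derl1 or Derl2 gene on both chromosomes without Cre recombinase. The KO mice of each line, Derlin-1 KO or Derlin-2 KO, carried the same floxed gene together with Cre recombinase under the nestin promoter, which is active in neural stem cells and their descendants in the central nervous system. Microglia and blood cells in the tissue do not descend from these cells. Derl1 and Derl2 encode membrane proteins of the endoplasmic reticulum that take part in the removal of misfolded proteins. Each of the 4 groups had 2 arrays, and no source states that the RNA of an array came from 1 mouse, so p-values measure only the spread between these arrays. The 4 arrays of a line shared a slide, and slide and line cannot be told apart.

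On each array 67.6% to 70.8% of all probes were well above background, the flag that the scanner software sets when a spot clearly exceeds the background around it. The brightest Derl1 probe differed by -0.20 (SE 0.10) on the log2 scale between Derlin-1 KO and control, with a limma adjusted p of 0.9999, and a second Derl1 probe differed by 0.46 (SE 0.12). The 2 Derl2 probes differed by -0.65 (SE 0.097) and -1.05 (SE 0.14) in Derlin-2 KO, with limma adjusted p of 0.257 and 0.217. Where the probes lie relative to the floxed exons is not known here, so the Derl1 probes did not check the labels of the Derlin-1 line, and the directions given for it rest on those labels. All 8 dentate granule neuron markers were detected on all 8 arrays. The 7 markers of CA pyramidal neurons, the cells of the neighbouring hippocampal fields, were also detected on all 8 arrays, with a mean log2 signal of 9.61 to 10.46 on Derlin-1 arrays and of 10.67 to 11.12 on Derlin-2 arrays.

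Of the 4460 lincRNA probes, all except 10 were named by a position and a strand of the mouse genome build mm9 rather than by a gene. These positions fell into 3230 regions with a median length of 7204 bases, quartiles of 697 and 21038 bases, and a range from 62 to 538251 bases. A region had probes on 1 strand in 2398 cases and on both strands in 832 cases. Of the 4062 targets given by region and strand, 3746 had 1 probe and 316 had several, up to 6. None of the 4460 probes had a gene symbol in the deposited tables (0 probes), and no annotation of mm9 was used here, so it is not given whether a region lies in or beside a gene. A total of 582 lincRNA probes (13%) lay in rows 337 to 384 of the array, against 12.8% of the other probes, and these final rows are given apart because the arrays of a group differed more there.

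LincRNA probes were detected less often than coding probes on every array. The share of lincRNA probes well above background was 58.8% and 60.8% in Derlin-1 controls, 60.9% and 62.0% in Derlin-1 KO, 65.7% and 64.1% in Derlin-2 controls, and 61.8% and 63.3% in Derlin-2 KO. Coding probes, meaning the 29638 probes to RefSeq mRNA accessions, were well above background in 78.1% to 80.2% of cases. The difference within an array was -16.9 ± 1.44 percentage points (SD, n = 8 arrays), lincRNA lower on 8 of 8 arrays, with an exact two-sided sign-flip permutation p of 0.00781, the smallest that 8 arrays can give. With the scanner's more lenient flag, for signal that is positive and significant over background, the difference was -5.69 percentage points. Against the 2477 probes to RefSeq noncoding RNA accessions, lincRNA probes were detected more often on all 8 arrays, by 9.76 to 11.4 percentage points, with the same exact permutation p of 0.00781.

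**Figure D1:**
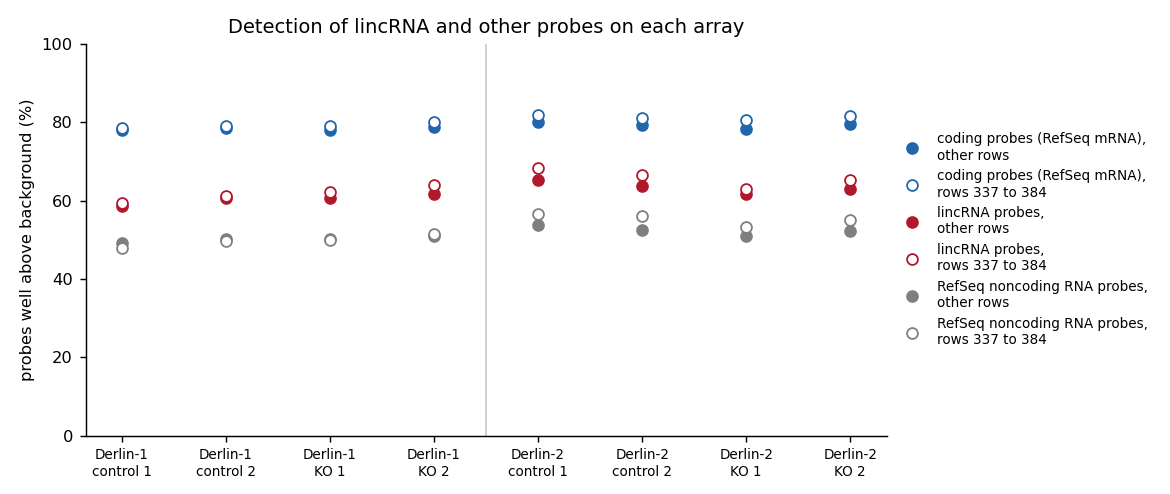
Share of probes well above background (y axis, %) on each of the 8 arrays (x axis) for coding, lincRNA and RefSeq noncoding RNA probes, with filled points for rows up to 336 and open points for rows 337 to 384. On every array the lincRNA share lies between the coding share and the RefSeq noncoding share.

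KO and control arrays differed by a few percentage points in the share of lincRNA probes detected, in opposite directions in the lines. In the Derlin-1 line it was 59.8% ± 1.38 (SD, n = 2) in controls and 61.4% ± 0.793 (SD, n = 2) in KO arrays, a difference of 1.63 percentage points. In the Derlin-2 line it was 64.9% ± 1.17 (SD, n = 2) in controls and 62.6% ± 1.08 (SD, n = 2) in KO arrays, a difference of -2.33 percentage points. The groups did not overlap in either line, KO above control for Derlin-1 but below it for Derlin-2, but RefSeq noncoding probes moved too, from 49.1% and 50.3% to 50.3% and 51.2% for Derlin-1 and from 54.3% and 53.0% to 51.2% and 52.6% for Derlin-2. All probes of the array went from 67.6% and 68.4% to 68.6% and 69.3% for Derlin-1, and from 70.8% and 69.1% to 67.9% and 69.5% for Derlin-2, where the groups overlapped. The exact two-sided permutation p of 0.333 is the smallest that 2 arrays against 2 can give. In bulk tissue, fewer cells of a type and less RNA per cell cannot be told apart.

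Detection was also less uniform over the arrays for lincRNA probes. All 8 arrays detected 2371 lincRNA probes (53.2%), no array detected 1145 (25.7%), and between 1 and 7 arrays detected the other 944 (21.2%). For coding probes the corresponding shares were 74.7%, 15.1% and 10.2%. The length of the region went with detection mainly at the short end. Probes to regions of 62 to 697 bases were detected on all 8 arrays in 40.6% of cases (335 of 826), against 55.0%, 55.3% and 57.6% in the 3 longer classes, which start at 698, 7207 and 21044 bases. Between chromosomes the share ranged from 45.4% on chromosome 3 to 63.1% on chromosome 17, with 50.6% on the X chromosome.

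Where signal was measured, it was lower for lincRNA than for coding probes. The median log2 signal over all lincRNA probes lay between 5.07 and 5.29 on the 8 arrays, and that of coding probes between 8.03 and 8.15. The difference of the medians within an array was -2.91 ± 0.0719 (SD, n = 8), lincRNA lower on 8 of 8 arrays, with an exact sign-flip permutation p of 0.00781. With normexp background correction it was -1.72. Among probes well above background on the array in question the difference was -2.47 ± 0.0623 (SD, n = 8), with the same exact permutation p of 0.00781. Over all probes, RefSeq noncoding probes had the lowest medians. LincRNA probes were 0.884 ± 0.0455 (SD, n = 8) log2 units above them, with an exact permutation p of 0.00781. Among probes well above background the order was the opposite on every array. There the medians were 6.71 to 6.93 for lincRNA probes and 6.93 to 7.19 for RefSeq noncoding probes. Signals of different probes also depend on probe sequence, so these differences describe the classes of probes and not the amounts of single RNAs.

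**Figure D2:**
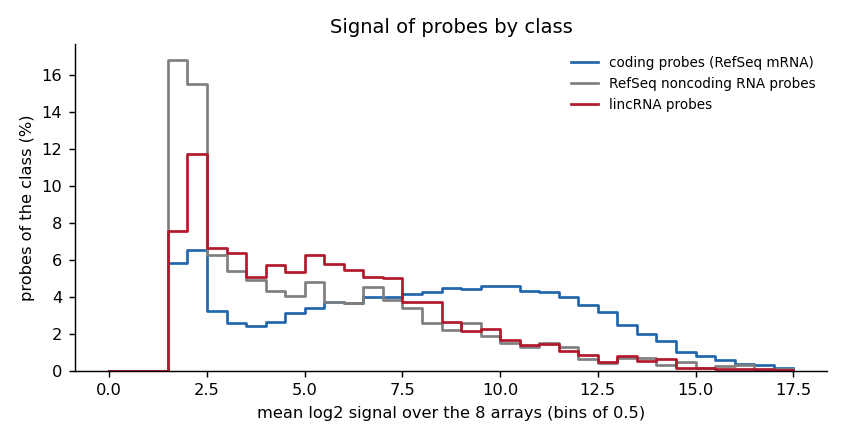
Distribution of the mean log2 signal over the 8 arrays (x axis, bins of 0.5) for lincRNA, coding and RefSeq noncoding RNA probes, as a percentage of the probes of each class (y axis). Coding probes spread over a broad hump at higher signal that the lincRNA probes lack, with array medians of 8.03 to 8.15 against 5.07 to 5.29. Every class has its tallest bin at the low end, the level of undetected probes. That bin holds 11.69% of lincRNA, 16.81% of RefSeq noncoding and 6.5% of coding probes.

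Counted by region, 1894 of the 3230 regions (58.6%) had at least 1 probe detected on all 8 arrays, and 699 (21.6%) had none on any array. Regions designed on both strands were detected more often, in 83.1% of cases on at least 1 strand against 50.2% of the regions with probes on 1 strand only. A region with both strands has more probes, so the shares do not rest on equal numbers of probes. Of the 832 regions with both strands, 340 (40.9%) were detected on both strands on all 8 arrays, 351 (42.2%) on 1 strand only and 141 (16.9%) on neither. The strand detected alone was the forward strand in 156 regions and the reverse strand in 195. In 176 regions a strand was detected on all 8 arrays while the opposite strand was detected on none.

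Among the regions with the most unequal strands, chosen by the difference in signal between their forward and reverse probes, 3 gave a detected reverse strand beside an undetected forward strand. The reverse probe to chr19:6268793-6276607 (A_30_P01020426) read 13.50 and 13.95 in Derlin-1 controls, and 13.45 and 13.61 in Derlin-1 KO. On Derlin-2 arrays it stood higher, between 14.61 and 15.06. The forward probe to this region (A_30_P01017441) was below the detection flag on all 8 arrays. The regions chr11:60728207-60745369 and chr7:50509139-50526856 showed the same arrangement, with the reverse strand detected on all 8 arrays and the forward strand on none. The reverse probe of the first (A_30_P01021628) read between 13.92 and 14.70, and that of the second (A_30_P01022987) between 12.14 and 13.29.

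The other 2 regions of this choice showed how far probes to the same target can differ. For chr12:73838608-73862621 the reverse probe (A_30_P01031264) read 16.70 to 17.66. A forward probe outside the final rows (A_30_P01020259) read 3.56 to 4.83 and was detected on 6 arrays, whereas a second forward probe in row 372 (A_30_P01020570) read 16.06 to 17.08 and was detected on 8. For chr10:116814196-116920696 the forward probe (A_30_P01024589) read 13.06 to 14.23. A reverse probe in row 321 (A_30_P01022288) was detected on 1 array, and a second reverse probe in row 343 (A_30_P01020420) read 9.08 to 10.93 and was detected on 8. A region with both strands entered the strand test when at least 1 strand was well above background on all 8 arrays. An unequal pair could thus enter through its brighter strand. Over the 679 regions tested, the difference between the strands' probes exceeded the spread between arrays by limma in 652. In 585 it was also at least 2-fold. The same count for different probes on 1 strand is not given, so these counts have no baseline. The forward probes were brighter in 287 of these and the reverse probes in 298, and since the probes differ in sequence this is a count of unequal probe signals and not a ratio of transcripts.

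The design names 10 lincRNA probes after known genes, which give a check of the class against its label. NEAT1, the RNA around which nuclear paraspeckles form, read 10.52 and 10.68 in Derlin-1 controls against 10.74 and 10.86 in Derlin-1 KO. In the Derlin-2 line its probe read 10.40 and 9.90 in controls against 9.82 and 9.63 in KO. KO arrays thus exceeded controls for Derlin-1 and fell short of them for Derlin-2, but the changes of 0.20 (SE 0.18) and -0.42 (SE 0.18) did not pass the threshold by limma, with adjusted p of 0.9999 and 0.931.

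TUG1, a conserved lincRNA named for its upregulation by taurine in retina, read 10.79 to 11.31 over the 8 arrays. KCNQ1ot1, the antisense transcript of the imprinted Kcnq1 locus, read 9.01 to 9.23. NRON, a noncoding repressor of the transcription factor NFAT, read 6.79 to 7.59. PINC, first described in mammary gland, read 5.93 to 7.19, with all 4 Derlin-1 arrays at 6.93 to 7.19 and all 4 Derlin-2 arrays at 5.93 to 6.31. All of these, like NEAT1, were detected on all 8 arrays, and their KO minus control differences ran from -0.08 to 0.20 for Derlin-1 and from -0.42 to 0.27 for Derlin-2. The signs of NRON, PINC and TUG1 in the Derlin-1 line, and of PINC and TUG1 for Derlin-2, turned under some alternatives.

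The remaining 5 named probes did not give a usable level. XIST, the RNA that coats the inactive X chromosome in females, was detected on 0 of the 8 arrays, as was its antisense partner TSIX. H19, an imprinted transcript of fetal tissue, and lincP21, an RNA near Cdkn1a that p53 induces, were also detected on 0 arrays. A probe to Xist outside the lincRNA class (A_52_P300376) was detected on Derlin-1 control replicate 2 alone, at 7.25. HOTAIR, a transcript of the HoxC cluster, was detected on 1 array only, Derlin-2 KO replicate 2.

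The 10 brightest regions outside the final rows had log2 signals of 15.45 to 17.97. The brightest, chr6:83368261-83407280 on the forward strand (A_30_P01032016), read 17.19 and 17.97 in Derlin-1 controls, 17.29 and 17.69 in Derlin-1 KO, 17.53 and 17.81 in Derlin-2 controls, and 17.64 and 17.60 in Derlin-2 KO. It was followed by chr14:78924115-78938125 on the forward strand (A_30_P01031448), with 16.69 and 17.91 in Derlin-1 controls, 16.99 and 17.74 in Derlin-1 KO, 16.94 and 17.64 in Derlin-2 controls, and 17.24 and 17.03 in Derlin-2 KO. Neither separated KO from control, and the arrays of a group lay up to 1.23 apart in this set. In Derlin-1 controls replicate 2 lay above replicate 1 in 10 of the 10 regions, by 0.06 to 1.23. Across the 10 regions the KO minus control change was between -0.20 and 0.11 for Derlin-1 and between -0.16 and 0.06 for Derlin-2.

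KO was then compared with control within each line. A probe entered the test when it was well above background on both arrays of at least 1 group, which held for 2902 of the 4460 lincRNA probes (65.1%) and 71.1% of the other probes. The spread between arrays of a group was wider for lincRNA probes, with a median SD of 0.247 against 0.142 for coding probes, at a median log2 signal of 6.69 against 9.23.

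In the Derlin-1 line no lincRNA probe passed the threshold of 0.05 on the limma adjusted p (0 of 2900), as no probe of the array did (0% of 39981). Without adjustment 169 lincRNA probes (5.83%) had a limma p under 0.05, against 4.69% of all probes. This lincRNA share rose or fell with the array that was left out. The share of all probes is not given for those fits, so it cannot be set beside the lincRNA share there. Of the 169 probes, 114 were higher in KO (all probes, 2.79%) and 55 lower (all probes, 1.9%). At least a 1.5-fold change of the means was reached by 240 lincRNA probes (8.28%; all probes, 4.64%), 127 higher (all probes, 2.62%) and 113 lower (all probes, 2.03%). Both KO arrays lay above both controls in 545 of 2878 probes (18.9%; all probes, 17.9%) and below them in 401 (13.9%; all probes, 17.8%). The median change over the lincRNA probes was -0.0072, with 48.6% above 0, beside -0.021 and 44.9% over all probes tested. This median was 0.10 without Derlin-1 control replicate 2, and it was also above 0 with 75th percentile scaling and with the deposited values.

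Next come the 5 lincRNA probes outside the final rows that were higher in Derlin-1 KO with the smallest p. By the choice itself they were detected on all 4 arrays of the line and stood above both controls on both KO arrays. A_30_P01027223, to the reverse strand of chr2:94046243-94070067, read 5.38 and 5.93 in controls, and both its KO arrays stood above them, with a mean of 7.06. Its change of 1.41 (SE 0.21) had a limma adjusted p of 0.927. In the Derlin-2 line the same probe lay lower in KO, with 6.46 and 6.11 in controls and 5.51 and 5.63 in KO. A reverse probe to chr2:94048967-94049430, inside the region (A_30_P01024807), differed by 0.00 and -0.07 in the 2 lines.

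A_30_P01028855, to the forward strand of chr17:8718223-8949898, read 5.86 and 5.89 in Derlin-1 controls against 7.44 and 7.47 in KO, a difference of 1.58 (SE 0.29). The forward probe of an overlapping region, chr17:8719950-8783850, differed by 0.31 and its reverse probe by 0.07. A_30_P01026974, to the reverse strand of chr5:152006587-152008784, read 7.27 and 7.71 in controls against 9.07 and 8.61 in KO, a difference of 1.35 (SE 0.30), and a difference of 0.64 (SE 0.30) was measured for Derlin-2 KO. The other 2 had smaller changes on close replicates. A_30_P01027785, to the reverse strand of chr8:18592437-18593034, read 5.53 and 5.54 in controls against 6.19 and 6.09 in KO. Probes to the overlapping region chr8:18587198-18592948 differed by 0.05 (A_30_P01033351, reverse) and -0.25 (A_30_P01025089, forward). A_30_P01033149, to the forward strand of chr9:68349343-68411643, read 9.86 and 9.94 in controls against 10.50 and 10.40 in KO, whereas a second forward probe to that region (A_30_P01027858) differed by 0.08.

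The 5 lincRNA probes lower in Derlin-1 KO by the same choice differed by -0.69 to -0.38, and by -0.07 to 0.15 in the Derlin-2 line. A_30_P01026443, to the reverse strand of chr5:22801058-22939737, read 4.97 and 5.13 in controls against 4.34 and 4.37 in KO, a difference of -0.69 (SE 0.11) with a limma adjusted p of 0.927. The 4 reverse probes to shorter regions inside it that could be tested differed by 0.20, 0.04, 0.31 and -0.18. A_30_P01029485, to the forward strand of chr19:23254618-23268776, read 7.33 and 7.48 in controls against 6.93 and 6.98 in KO, and the reverse probe of the region differed by -0.21. A reverse probe to chr19:23264899-23268776, inside the region (A_30_P01027761), differed by 0.14. The groups of these probes did not overlap, by the choice itself. A_30_P01028582 (chr2:22753100-22780375, reverse), A_30_P01028797 (chrX:34360500-34388500, reverse) and A_30_P01022945 (chrX:93157194-93160542, reverse) completed the set, with changes of -0.49, -0.49 and -0.38. A forward probe to the region of A_30_P01028797 (A_30_P01024823) differed by -0.02. A forward probe overlapping A_30_P01022945 (A_30_P01022007) differed by -0.44.

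**Figure D3:**
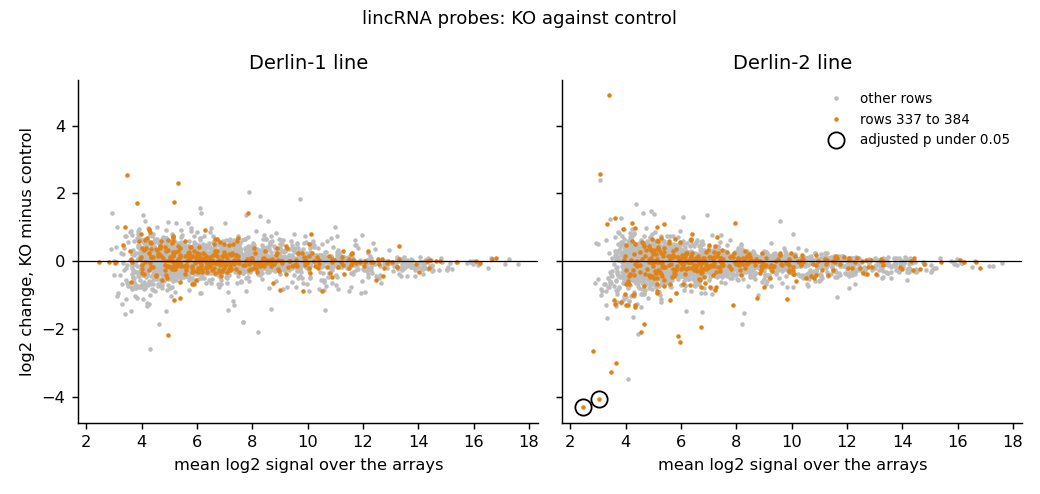
Log2 change, KO minus control (y axis), against mean log2 signal over the arrays (x axis) for the lincRNA probes tested in the Derlin-1 line (left) and the Derlin-2 line (right), with orange points for rows 337 to 384. The 2 ringed probes, at -4.07 and -4.31 in the Derlin-2 line, passed the threshold of 0.05 on the adjusted p, and both lie in the final rows.

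In the Derlin-2 line 2 lincRNA probes of 2874 passed the threshold by limma, against 0.0452% of all probes (18 of 39812), and both were lower in KO. Both were well above background in Derlin-2 controls alone, so they entered the test only through the group in which they were high, and a difference is built into that entry. With detection required on all 8 arrays 0 passed, and without any filter 4 did, these 2 among them. Both lay in rows 337 to 384, and of the 2493 lincRNA probes in the other rows none passed it (0 probes), with a smallest limma adjusted p of 0.148 and 172 (6.9%) at an unadjusted p under 0.05 (all probes in those rows, 5.33%). A_30_P01025111, in row 378 and designed to the reverse strand of chr8:27129927-27137444, read 5.91 and 6.25 in Derlin-2 controls against 2.05 and 1.97 in Derlin-2 KO. In the Derlin-1 line it read 2.08 and 2.01 in controls, and its Derlin-1 KO arrays had a mean of 2.01. None of these 4 Derlin-1 arrays, nor any Derlin-2 KO array, was well above background, so that the Derlin-2 KO signal has only an upper bound. The controls exceeded that bound by at least 4.20-fold, with a fitted change of -4.07 (SE 0.13) and a limma adjusted p of 0.00184. The SD was 0.24 in Derlin-2 controls, against 0.056 in Derlin-2 KO and 0.047 and 0.014 in the Derlin-1 groups. This SE pools the spread of the controls with that of nearly constant undetected groups, so the p does not measure the spread at the level of the controls.

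A_30_P01019160, in row 380 and designed to the reverse strand of chr1:138442536-138521080, had only 1 usable Derlin-2 control array, at 6.16, because the spot on the other was marked as an outlier and left out. It read 1.87 and 1.85 in Derlin-2 KO and 1.83 to 1.87 in the Derlin-1 line. The control exceeded the bound for Derlin-2 KO by at least 4.44-fold, with a fitted change of -4.31 (SE 0.12) and a limma adjusted p of 0.00323. With 1 control value the spread in this fit comes from the other groups, and the lone array is assumed to vary as they do. Those groups were undetected and nearly constant, with SDs of 0.014 to 0.015.

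Other probes to the same places showed smaller differences. The forward probe of chr8:27129927-27137444 (A_30_P01033184) differed by -0.20, and 2 reverse probes to chr8:27133090-27133734, inside that region, differed by -0.27 (A_30_P01021267) and 0.17 (A_30_P01024148). In the second place, the reverse probe to chr1:138442536-138520766 (A_30_P01032813), which covers nearly the same bases, read 11.88 and 12.36 in Derlin-2 controls against 12.05 and 12.18 in KO, a difference of 0.00. The reverse probes to chr1:138499609-138502045 (A_30_P01030078) and chr1:138518674-138521227 (A_30_P01019416) differed by 0.49 and 0.09, and a forward probe to chr1:138442536-138520766 (A_30_P01027917) by -0.65 (SE 0.31). Both calls were lost, and 0 lincRNA probes passed, with normexp background correction, an intensity trend in limma's prior, or a model of the Derlin-2 arrays alone. Without Derlin-2 control replicate 1 or replicate 2 the lincRNA probes past the threshold were 5, and without Derlin-2 KO replicate 2 only A_30_P01025111 remained (1 probe). A_30_P01019160 could not be tested without control replicate 2, its only control value.

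Below the threshold, lincRNA probes leaned to the lower side in Derlin-2 KO. An unadjusted limma p under 0.05 was found for 211 lincRNA probes (7.34%; all probes, 5.51%). This share also rose or fell with the array left out, and that of all probes is not given for those fits. Of the 211 probes, 69 were higher (all probes, 2.66%) and 142 lower (all probes, 2.85%). At least a 1.5-fold change was reached by 240 (8.35%; all probes, 5.68%), 76 higher (all probes, 2.42%) and 164 lower (all probes, 3.26%). Both KO arrays lay above both controls in 308 of 2831 probes (10.9%; all probes, 17%) and below them in 506 (17.9%; all probes, 14.2%). The median change was -0.040 with 42.8% above 0, beside 0.008 and 52.0% over all probes, but it was 0.038 without Derlin-2 control replicate 2, -0.10 without replicate 1 of these controls and -0.079 without Derlin-2 KO replicate 1. Of the CA pyramidal markers 0 of 7 were above 0 in Derlin-2 KO, with a median of -0.27 and none past the threshold, while in the Derlin-1 line 5 of 7 were above 0 with a median of 0.21. Other marker lists also differed, none past the threshold. In Derlin-2 KO the medians were -0.19 for interneurons (1 of 6 above 0), -0.27 for astrocytes (2 of 5), 0.21 for choroid plexus (5 of 7) and -0.11 for blood (0 of 3). In Derlin-1 KO they were 0.17 for interneurons (5 of 6), 0.39 for choroid plexus (6 of 7), -0.66 for blood (0 of 3) and -0.14 for microglia (0 of 5). The medians not named here, those of granule neurons, oligodendrocytes and endothelium among them, lay between -0.044 and 0.039. The part of these cell types in the lincRNA shift was not tested.

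The 5 lincRNA probes outside the final rows with the smallest p among those lower in Derlin-2 KO differed by -0.99 to -0.58. A_30_P01018878, to the forward strand of chr8:71938275-72113375, read 5.19 and 5.13 in controls against 4.30 and 4.07 in KO, a difference of -0.97 (SE 0.12) with a limma adjusted p of 0.148. Reverse probes to shorter regions inside it differed by -0.11 (A_30_P01023337), -0.42 (A_30_P01030794) and -0.06 (A_30_P01032449). A_30_P01030362, to the reverse strand of chr8:87504644-87513694, read 10.40 and 10.20 in controls against 9.28 and 9.34 in KO, a difference of -0.99 (SE 0.17), and it read 7.67 to 8.16 in the Derlin-1 line. This probe stood higher on all 4 Derlin-2 arrays than on any Derlin-1 array. A forward probe to the same region (A_30_P01019354), in row 354, differed by 0.18 in the Derlin-2 line.

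A_30_P01025566 (chr2:176211325-176231650, forward) read 5.41 and 5.57 in Derlin-2 controls against 4.87 and 4.69 in KO. A_30_P01019695, to the reverse strand of chr8:129102060-129109035, read 6.16 and 6.20 in controls against 5.62 and 5.59 in KO, while the forward probe of the region differed by 0.05. A_30_P01022555 (chr13:74712805-74729233, reverse) read 5.47 and 5.57 in controls against 4.68 and 4.42 in KO, and a second probe to its target was detected on 0 arrays.

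Those higher in Derlin-2 KO differed by 0.52 to 1.42. A_30_P01026441, to the forward strand of chr14:77077374-77086910, read 4.24 and 4.63 in controls against 5.60 and 6.10 in KO, a difference of 1.42 (SE 0.25) with a limma adjusted p of 0.341. A_30_P01028219, to the forward strand of chr4:21683562-21694350, read 5.16 and 5.12 in controls against 5.85 and 5.88 in KO, whereas the forward probe to the nearly identical region chr4:21683562-21694344 (A_30_P01026273) differed by -0.38. A_30_P01030969, to the reverse strand of chr1:175660642-175671878, read 6.72 and 6.68 in controls against 7.24 and 7.34 in KO. Here 2 reverse probes to the overlapping region chr1:175654606-175672031 differed in the same direction, by 0.58 (A_30_P01031526) and 0.24 (A_30_P01021838), while the second probe to the region itself (A_30_P01024706) was detected on 0 arrays. A_30_P01017868 (chr2:177789718-177813140, reverse) and A_30_P01024768 (chr16:77670599-77691642, forward) differed by 0.60 and 0.52. A forward probe to chr16:77682803-77708453, which overlaps the latter (A_30_P01024560), differed by -0.18.

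**Figure D4:**
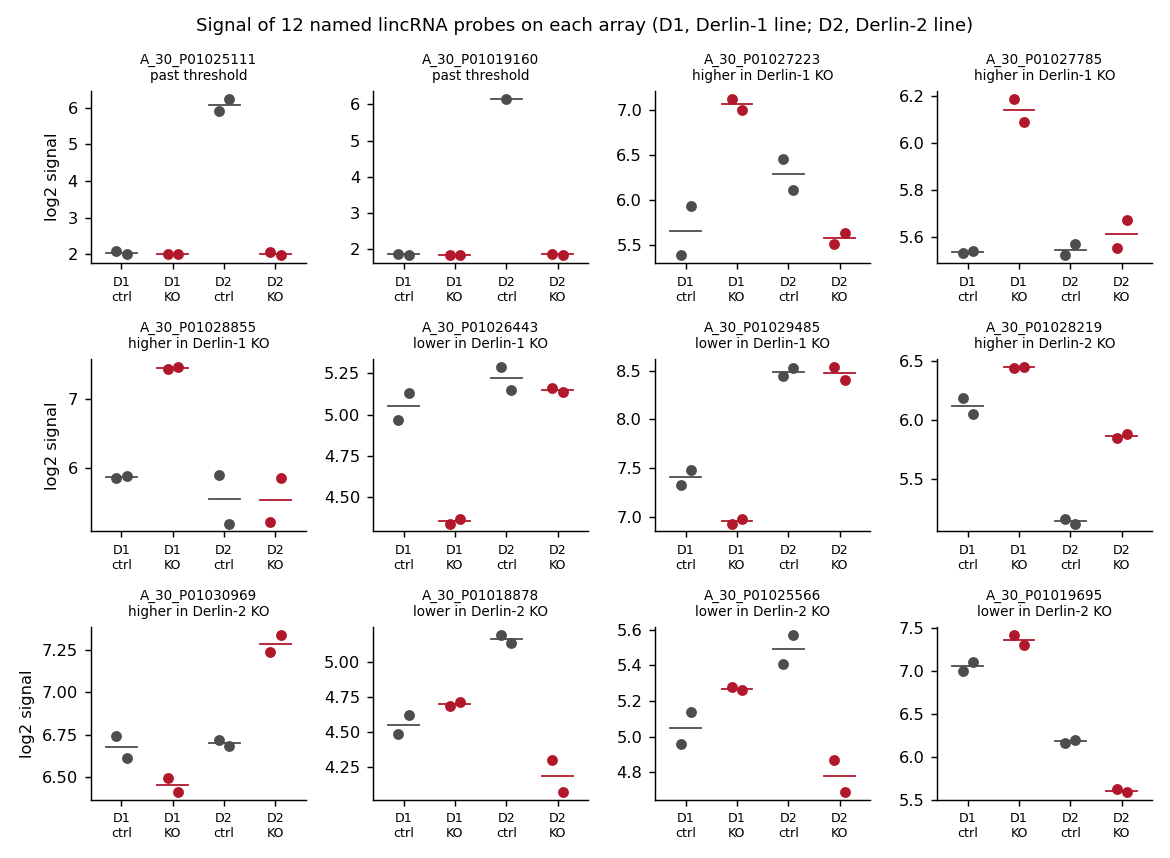
Log2 signal (y axis) of 12 lincRNA probes on each array by group (x axis), with a point per array, grey for control and red for KO, and a line at the group mean. The 2 probes past the threshold stand near 6 in Derlin-2 controls and near 2 in the other groups, and A_30_P01019160 has 1 Derlin-2 control point because the other spot was left out.

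The test of the Derlin-1 effect minus the Derlin-2 effect called the same 2 lincRNA probes of 2874, against 0.00754% of all probes (3 of 39810), A_30_P01025111 and A_30_P01019160, with a limma adjusted p of 0.0121 for each. Neither was well above background in the other 3 groups, so the size of the difference was not measured, and the spread was drawn in part or wholly from undetected groups. Without the filter on dim probes 0 passed. An unadjusted limma p under 0.05 was found for 223 lincRNA probes (7.76%; all probes, 5.85%), a share that again rose or fell with the array left out. Of the 223 probes, 163 had a larger value for Derlin-1 (all probes, 3.45%) and 60 a smaller one (all probes, 2.4%). A difference of at least 1.5-fold was reached by 515 (17.9%; all probes, 11.9%), 357 of them larger for Derlin-1 (all probes, 7.26%) and 158 smaller (all probes, 4.64%). The 2 calls became 0 when any one Derlin-1 array or Derlin-2 KO array was left out, and 5 without Derlin-2 control replicate 2. Outside the final rows the largest separation by p was that of A_30_P01027223, whose effects of 1.41 and -0.72 differed by 2.13 (SE 0.30) with a limma adjusted p of 0.355. A_30_P01024570, to the forward strand of chrX:102567595-102589870, read 5.13 and 5.26 in Derlin-1 controls, 5.78 and 5.68 in Derlin-1 KO, 5.88 and 5.66 in Derlin-2 controls, and 5.30 and 5.15 in Derlin-2 KO. KO exceeded control for Derlin-1 and fell below it for Derlin-2. That KO and control arrays did not overlap in either line follows from the choice itself. The difference of 1.08 (SE 0.18) had a limma adjusted p of 0.46. The reverse probe to the region (A_30_P01029149) differed by 0.71 (SE 0.36) and -0.15 (SE 0.36).

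Probes to a shared target give a view of how far a lincRNA change repeats on another sequence, as a description across targets that share arrays. Among 145 lincRNA targets with 2 tested probes, the changes of the probes had the same sign in 83 (57.2%) for Derlin-1 and in 87 (60%) for Derlin-2, with Pearson's r of 0.16 and 0.29 across targets. For coding targets with 2 tested probes the shares were 63.9% of 4389 and 60.9% of 4382, with r of 0.24 and 0.23. Limited to probes outside the final rows and detected on all 8 arrays, lincRNA targets agreed less often than coding targets in both lines. Their shares were 53% of 83 and 56.8% of 81, with r of 0.11 and 0.20. Coding shares were then 64.4% of 3248 and 62.1% of 3242, with r of 0.28 and 0.25. The forward and reverse strands of a region changed with the same sign in 240 of 445 regions (53.9%) for Derlin-1 and in 216 of 439 (49.2%) for Derlin-2, with r of -0.01 and 0.02.

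The final rows stood apart in the spread between arrays. A gap of at least 3 log2 units between the 2 arrays of a group was found for 1.2% to 3.18% of the lincRNA probes in rows 337 to 384, depending on the group, and for 0.181% to 0.391% in the other rows. Other probes showed 0.689% to 1.9% and 0.156% to 0.385%. Over bins of 24 rows the share of lincRNA probes with such a gap in any group lay between 0% and 3.2% up to row 336, with the highest value in rows 313 to 336, and was 5.9% in rows 337 to 360 and 8.47% in rows 361 to 384. The lincRNA probes of the final rows were detected more often than the others, by 1.8 ± 0.946 percentage points (SD, n = 8). Their median log2 signal was higher by 0.274 ± 0.125 (SD, n = 8). Each difference held on 8 of 8 arrays, with an exact sign-flip permutation p of 0.00781. The same 582 probes lie there on every array, so this p cannot tell the position from the probes. Over all probes of the array the medians were 6.48 to 6.61 in the final rows and 6.34 to 6.37 in the other rows. Of the 381 lincRNA probes tested there for Derlin-2, 16.5% differed by at least 1.5-fold, against 7.1% in the other rows, and for Derlin-1 the shares were 9.38% and 8.11%. Over all probes of the array the shares were 9.95% and 5.05% for Derlin-2, and 5.8% and 4.47% for Derlin-1.

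**Figure D5:**
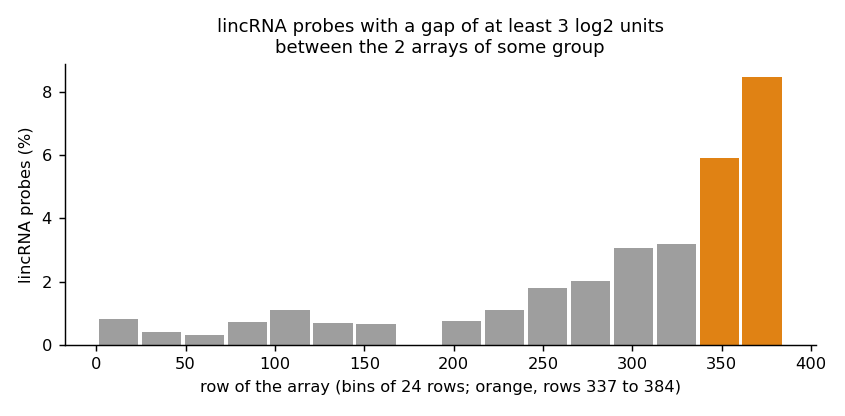
Share of lincRNA probes (y axis, %) whose signal differed by at least 3 log2 units between the 2 arrays of any group, by row of the array (x axis, bins of 24 rows). The share is 3.2% or less up to row 336 and reaches 5.9% and 8.47% in the orange bins, rows 337 to 384.

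For comparison, 32 genes listed as long noncoding RNAs, most of them known in brain, were looked up by gene symbol among the other probes of the array, of which 28 were present and 24 were detected on all 8 arrays and tested. Among these 24, the probes used for 6330403K07Rik and Snhg11 belong to the coding probes as defined above. None passed the threshold in either line by limma (0 of 24), with 3 at an unadjusted p under 0.05 for Derlin-1 and 2 for Derlin-2 (all probes, 4.69% and 5.51%). In the Derlin-1 line 21 of 24 were above 0, with a median difference of 0.14, where 44.9% of all probes were above 0. For Derlin-2 it was 10 of 24, with a median of -0.048, where 52% of all probes were above 0. The genes share arrays and some share a locus, so they are not independent. These counts and medians are not given without an array. Meg3, the maternally expressed noncoding RNA of the imprinted Dlk1-Dio3 locus, read 15.51 and 15.58 in Derlin-1 controls, below both KO arrays with their mean of 16.02. In the Derlin-2 line its 2 controls, at 15.82 and 14.99, lay on either side of the KO arrays at 15.15 and 15.14. Rian and Mirg, transcribed from the same locus, differed by 0.25 and 0.60 for Derlin-1 and by -0.47 and -0.20 for Derlin-2. Rmst, an RNA of neural progenitors that binds Sox2, differed by 0.52 (SE 0.18) and 0.96 (SE 0.18), with limma adjusted p of 0.9999 and 0.403. Neat1 had a second, non-lincRNA probe that read 5.28 to 6.03, against 9.63 to 10.86 for the lincRNA probe to NEAT1. The changes of that second probe were 0.02 and 0.38, beside 0.20 and -0.42 for the lincRNA probe. Kcnq1ot1 had such a probe too, at 12.89 to 14.10. Its changes were 0.49 (SE 0.27) and -0.20 (SE 0.27), beside 0.14 and 0.14 for the lincRNA probe to KCNQ1ot1. The H19 probe of this list was detected on 4 arrays, against 0 for the lincRNA probe to H19.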

How the data were processed

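The deposited scanner files hold spot intensity, background-subtracted and detrended by Agilent Feature Extraction (version 10.7.1.1, per the file headers), with flags for outlier spots and for signal well above background. As log2 values, quantile-normalized by the authors with GeneSpring and centred per probe on a median, the deposited tables served as an alternative. Columns of the authors' fold changes in these tables were not used.

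Control spots (3671) and outlier-flagged spots were left out. Values below 1 were set to 1 before log2 was taken, the 8 arrays were brought to common quantiles, and spots of a probe were averaged. Probes well above background on both arrays of at least 1 group were kept (40001). A model of 4 group means was fitted with limma (version 3.58.1, R version 4.3.3) to all 8 arrays, with 4 residual and 2.08 prior degrees of freedom. Contrasts were KO minus control in each line and the Derlin-1 contrast minus the Derlin-2 contrast, tested two-sided, with Benjamini-Hochberg adjustment over all probes tested and a threshold of 0.05. The fit was run on simulated data with large changes planted in probes of higher mean signal. That simulation did not cover probes near background, such as the 2 past the threshold, or small changes. The number of arrays limits the precision. A probe not above background in a group has only a bound there, the higher of its own signal and the lowest signal well above background on each array.

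The named lincRNA probes were those past the threshold, up to 5 per line and direction with the smallest p that lay outside rows 337 to 384, were detected on all 4 arrays of the line and had both KO arrays beyond both controls, up to 5 for the difference by the same filter on 8 arrays, the 10 brightest regions, 5 regions with the largest strand difference and the 10 probes named by the design. The 5 strand regions were ranked after leaving out the final rows. Chromosome 18 was left unnamed. The members and lists were chosen with earlier results of these data known. Alternatives were other scaling, normexp with an offset of 50 (on median signals, as the mean signal was not used here), the deposited values, other filters, a trended prior, the replicate number as a block, averaging per region and strand, a fit per line, and leaving out each array. The order of spot averaging, outlier removal and normalization was varied after the data had been seen.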

Additional observations from a re-analysis of the deposited data

Results flagged for a closer look

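The lincRNA probes A_30_P01025111 (chr8:27129927-27137444, reverse strand) and A_30_P01019160 (chr1:138442536-138521080, reverse strand) drew attention because the test of the difference between the lines' KO effects passed the threshold for them, with fitted log2 values of 4.03 and 4.28 and a limma adjusted p of 0.0121 for each. These sizes are set against groups below the detection flag and were not measured, and the probes entered the test only through the Derlin-2 controls. Both were below the detection flag on every array except the Derlin-2 controls, where the first read 5.91 and 6.25 and the second 6.16 on its only usable array. They lay in rows 378 and 380 of the array, among the rows in which gaps of at least 3 log2 units between arrays of a group were found for 8.47% of the lincRNA probes, and the part of the position in these differences was not tested.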

How the results depend on the processing

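In the Derlin-1 line 0 lincRNA probes passed under every alternative with a test. The 2 lincRNA calls of the Derlin-2 line became 0 with normexp, with detection required on all 8 arrays, without the final rows, with the trended prior, with the replicate block and with a fit per line, 1 with the deposited values and 4 without the filter, and 1 to 5 when an array was left out. Both orders of processing added after the data had been seen gave 2 calls. For the difference between lines the 2 calls became 0 with normexp, no filter, detection on all 8 arrays, the final rows left out, the trended prior and the replicate block, 1 with the deposited values, and 0 to 5 without an array. Without an array, the share of lincRNA probes at an unadjusted p under 0.05 ran from 3.93% to 9.56% for Derlin-1, 6.01% to 12.9% for Derlin-2 and 5.08% to 14.8% for the difference. The shares of all probes under the same omissions are not given, so these ranges cannot be read as particular to lincRNA probes. By a 1.5-fold change with no test the counts were 240, 240 and 515. The median lincRNA change in the Derlin-1 line was 0.097 with 75th percentile scaling and 0.074 with the deposited values, and ran from -0.073 to 0.10 without an array; in the Derlin-2 line from -0.10 to 0.038. The detection difference from coding probes was -5.69 with the more lenient flag and the signal difference -1.72 with normexp. Against RefSeq noncoding probes the signal difference over all probes was 0.884 instead of -2.91, by the construction of that comparison.

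Among named probes, signs turned only for differences of 0.15 or less in size. PINC in the Derlin-1 line was 0.04 with 75th percentile scaling, 0.02 with deposited values and -0.20 to 0.03 without an array, and for Derlin-2 -0.02 with normexp, 0.00 with deposited values and -0.14 to 0.21 without an array. TUG1 was -0.06 to 0.17 in the Derlin-1 line without an array, and for Derlin-2 0.02, 0.04, 0.01 and 0.00 with 75th percentile scaling, normexp, deposited values and later outlier removal, and -0.07 to 0.05 without an array. In the Derlin-1 line NRON ran from -0.07 to 0.36 and the second Derl2 probe from 0.00 to 0.07 without an array. The causes were not tested. Replicate numbers of a line are not stated to mark a shared litter or batch, and deviations of same-numbered arrays correlated at 0.268 and -0.098, so the block is given here only. Low signal over background and 2 arrays a group limit what can be seen in lincRNA probes.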

Other observations

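A probe of the array to Xist outside the lincRNA class (A_52_P300376) read 7.25 in Derlin-1 control replicate 2 and between 1.82 and 3.77 on the other 7 arrays, and it was detected on that array alone, while the lincRNA probe to XIST read 1.91 to 1.97 on all 8 arrays.

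The lincRNA design prints 5 probes 10 times on each array, which shows how closely spots of a probe repeat within an array. The probe A_30_P01021243 (chr17:48068261-48087905, forward strand) had spot SDs of 0.0388 to 0.0644 log2 units over the 8 arrays, at means of 15.29 to 15.55. The probes A_30_P01026091 and A_30_P01026611 share the target chr6:116123643-116124550 on the forward strand, and both were lowest on Derlin-2 control replicate 2, at 14.10 and 14.11.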
